A study of Rattus norvegicus with 3 samples.

Results

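Capsular fibroblasts of the rat thymus were taken as the cells that the authors' annotation calls capFb, an abbreviation left unexpanded in the files. They numbered 1358 of the 13226 annotated cells of a stromal library, a share of 10.3% (95% interval 9.76 to 10.8, exact Clopper-Pearson). The label came from 1 cluster, and no capFb cell carried a label projected from a reference. Thymi of Lewis rats, which are inbred, were collected at 8 weeks of age, and the labels name no treatment and no genetic change. Liberase TH with DNase I released the stroma, and cells lacking CD45, the surface protein of blood-derived cells, were enriched on magnetic columns and by flow sorting. The share of each stromal type is that after this digestion and sort. The number of rats pooled is not given in the sources used here. The series also holds a thymocyte library from rats of that strain and age, made with collagenase D and DNase I, and 1 Stereo-seq section of 10 µm, in which RNA is captured on a chip of spots with known positions. The comparison types were the authors' mesenchymal groups TMC1 (1377 cells), TMC2 (3080), TMC3 (1152) and TMC4 (1249). Each kind of sample existed once, so no test was possible. Intervals are 95% intervals for counting error alone, and nothing here measures variation between animals.

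The thymic capsule is a sheet of connective tissue that encloses the lobes and sends septa between the lobules. Fibroblasts of such boundary tissues deposit collagen and elastic microfibrils, and in many organs a fibroblast state marked by Pi16 and Dpp4 occupies the outer connective tissue around organs and large vessels. Mesenchymal cells inside the thymus are known to supply growth factors to epithelial cells and chemokines to lymphocytes.

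The capFb cells held 16161574 unique molecular identifiers (UMIs, each standing for 1 captured RNA molecule). Their median was 11378.5 UMIs and 3667.5 genes per cell, against medians of 8143 to 9749 UMIs in TMC1 to TMC4. The median mitochondrial share was 0.991% in capFb and 1.02% to 1.16% in the TMC types. Levels are given as CPM, UMIs of a gene per 1000000 UMIs summed over the cells of a type. In all, 38 barcodes occurred in both droplet libraries, 2 of them capFb cells.

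The 3 marker genes fitted the label. Pi16, which encodes peptidase inhibitor 16, stood at 4894 CPM in capFb, 371 in TMC1, 39.2 in TMC2, 217 in TMC3 and 18.5 in TMC4. Dpp4, a membrane peptidase that trims chemokines and other peptides, stood at 820 CPM in capFb, 154 in TMC1, 46.7 in TMC2, 37.4 in TMC3 and 3.64 in TMC4. Adamts16, a secreted metalloprotease, stood at 173 CPM in capFb, 5.42 in TMC1, 0.412 in TMC2, 5.49 in TMC3 and 0.346 in TMC4. TMC1 held the next level of Pi16 and Dpp4, while TMC1 and TMC3 were level for Adamts16. The ratio of capFb to the next of the 4 types was 13.2 (12.8 to 13.6) for Pi16, 5.33 (5.10 to 5.58) for Dpp4 and 31.5 (24.3 to 40.8) for Adamts16. The clusters were built from these same cells and genes, so these ratios describe the label and do not test it.

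A Pi16 UMI was seen in 99.6% of capFb cells, a Dpp4 UMI in 94.2% and an Adamts16 UMI in 61.2%. Capillary endothelial cells gave 11.2%, 5.03% and 1.26% at a median depth of 5805.5 UMIs, and cortical epithelial cells gave 9.38% for Pi16 at 10535 UMIs. Whether these are true expression or background was not tested. With every cell thinned to 2000 UMIs, 96.0% of capFb cells kept a Pi16 UMI, 70.7% kept both Pi16 and Dpp4, 18.0% kept all 3 and 1.99% kept none. The thinned share with both Pi16 and Dpp4 was 12.0% in TMC1, 1.98% in TMC3 and under 1% elsewhere among the TMC types (0.717% in TMC2 and 0.0807% in TMC4).

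Pi16 in TMC3 was carried by few cells. Of the 1152 TMC3 cells, 20 reached the lower quartile of Pi16 CPM in capFb (2084 CPM in a cell), and they held 73.1% of the TMC3 Pi16 UMIs. The other TMC3 cells stood at 60.5 CPM. In TMC1, 45 of 1377 cells reached that level and held 26.9% of the Pi16 UMIs, with 280 CPM in the rest. No TMC2 or TMC4 cell reached it.

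**Figure D1:**
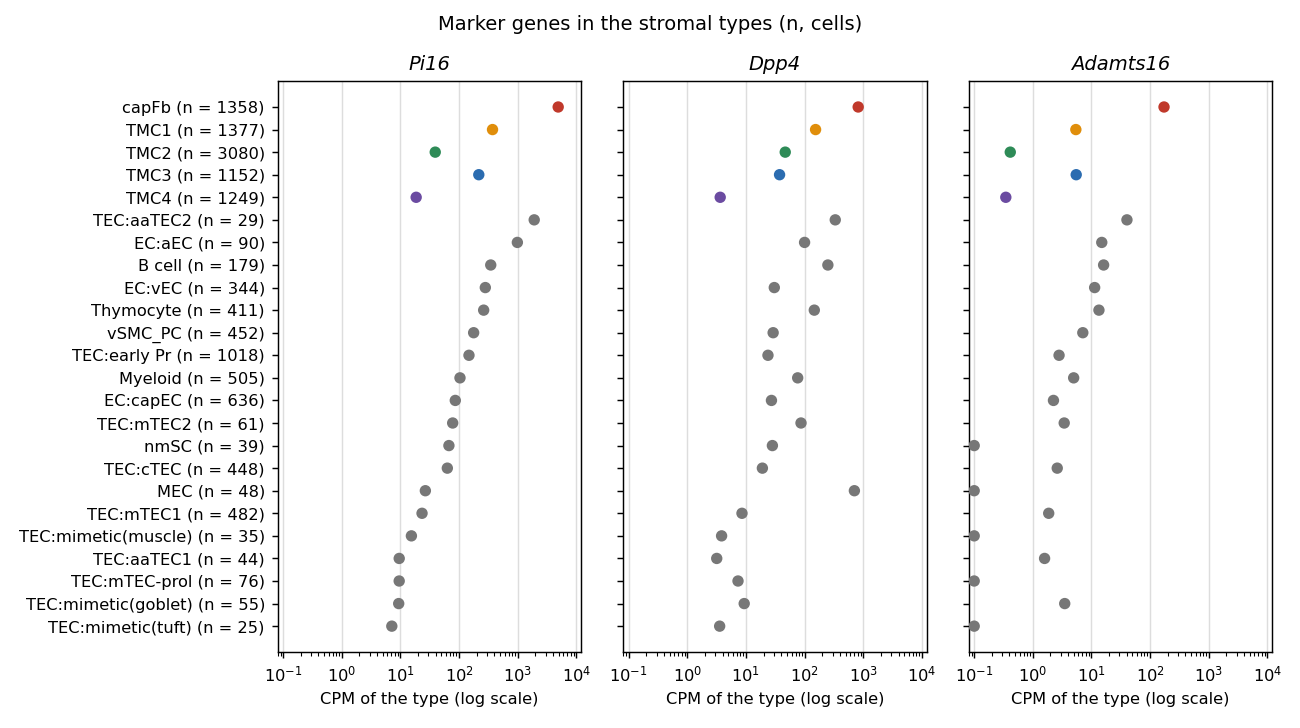
CPM of Pi16, Dpp4 and Adamts16 (log axes) in the 24 stromal types with at least 20 cells, 1 point per type, with the number of cells beside each name. Types at 0 are drawn at the left edge; capFb stands at 4894, 820 and 173 CPM, above every other type shown.

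Among types outside the mesenchyme, Pi16 reached 1909 CPM in the 29 cells labelled TEC:aaTEC2, an epithelial label, and 985 in the 90 arterial endothelial cells. Dpp4 reached 706 CPM in the 48 cells labelled MEC, close to its 820 in capFb. In the MEC cells Pi16 stood at 26.6 CPM and no Adamts16 UMI was seen. Outside the 5 mesenchymal types, 75 of 5010 cells reached the capFb lower quartile of Pi16, 10 of them TEC:aaTEC2 cells. Those 10 cells held Fbn1 at 4371 CPM and Col1a1 at 7271 CPM together with the keratin Krt14 at 1168 and the epithelial adhesion gene Epcam at 312. In capFb, Krt14 stood at 12.0 CPM and Epcam at 4.64. The median depth of the 10 cells was 21763.5 UMIs, and whether they are doublets was not tested.

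The listed markers of blood and epithelial cells were low in capFb. The summed level of 10 thymocyte genes was 7.73 CPM in capFb and 8.27 to 11.7 in the TMC types, against 7064 in the cells labelled thymocyte. For 10 myeloid genes it was 9.22 CPM against 9.98 to 26.8, and for 9 epithelial genes 41.8 against 49.0 to 52.0. No UMI of the Schwann cell genes Sox10, Cdh19 and Erbb3 was seen in capFb. No cell cycle gene (of 8 tested), mesothelial marker (of 5), Schwann marker (of 3) or adipocyte marker (of 1) passed 2-fold in either direction. Over all tested genes 2.97% were higher and 6.45% lower, so 0 among so few genes is no evidence of absence. The summed level of the mesothelial list was 60.7 CPM in capFb, 83.86 in TMC1, 27.99 in TMC2, 35.79 in TMC3 and 14.8 in TMC4. Bnc1 of the mesothelial list and Scx and Col2a1 of the tendon and cartilage list were at 0 in capFb, and Tnmd of the latter list was 2-fold lower. Hba-a1, a haemoglobin chain, was higher at 4.08 CPM against at most 1.496, and its part in other results was not tested. The endothelial list held a larger difference, in Tek, the angiopoietin receptor usually used as an endothelial marker. Tek stood at 189 CPM in capFb, 23.2 in TMC1, 4.38 in TMC2, 9.75 in TMC3 and 1.64 in TMC4, a ratio of 8.14 (7.27 to 9.13) to the next type. A Tek UMI was present in 82.1% of capFb cells, while the defining endothelial genes Cdh5 and Pecam1 stood at 0.928 and 6.99 CPM.

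Across the transcriptome, 13530 genes had at least 100 UMIs over the 5 mesenchymal types. Of these, 402 (2.97%) were at least 2-fold higher in capFb than in each of TMC1 to TMC4, and 873 (6.45%) were at least 2-fold lower than in each. The excess of lower genes was accompanied by a median log2 ratio of capFb to the mean of the 4 types of -0.21 over all tested genes. Centred on the median gene of each pair of types, that median was -0.09 and the counts were 446 and 802. At 3-fold the counts were 234 and 467, and 54 genes were at least 10-fold higher. Of the 402 genes, 217 were also higher in capFb than in all 13 other stromal types with at least 50 cells, and 156 were at least 2-fold above all of them.

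By these measures TMC1 was nearest to capFb. The share of genes with a 2-fold difference in either direction was 12.2% against TMC1, 17.6% against TMC2, 20.2% against TMC3 and 26.4% against TMC4. Against TMC1 alone, 506 of 11422 genes with enough UMIs (4.43%) were higher in capFb and 883 (7.73%) lower. The shares were 6.55% higher and 11.1% lower against TMC2, 6.99% and 13.2% against TMC3, and 9.98% and 16.5% against TMC4. Across the 13530 genes, Pearson's r of log2 CPM was 0.939 with TMC1, 0.895 with TMC2, 0.871 with TMC3 and 0.779 with TMC4; genes are not independent, and r is a description. TMC1 was the next type for 269 of the 402 higher genes. The levels of 1186 of the 13530 tested genes followed the order capFb, TMC1, TMC2, TMC4 from high to low. TMC3 was left out of this order and the reverse order was not counted, so the count is no evidence of a gradient.

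**Figure D2:**
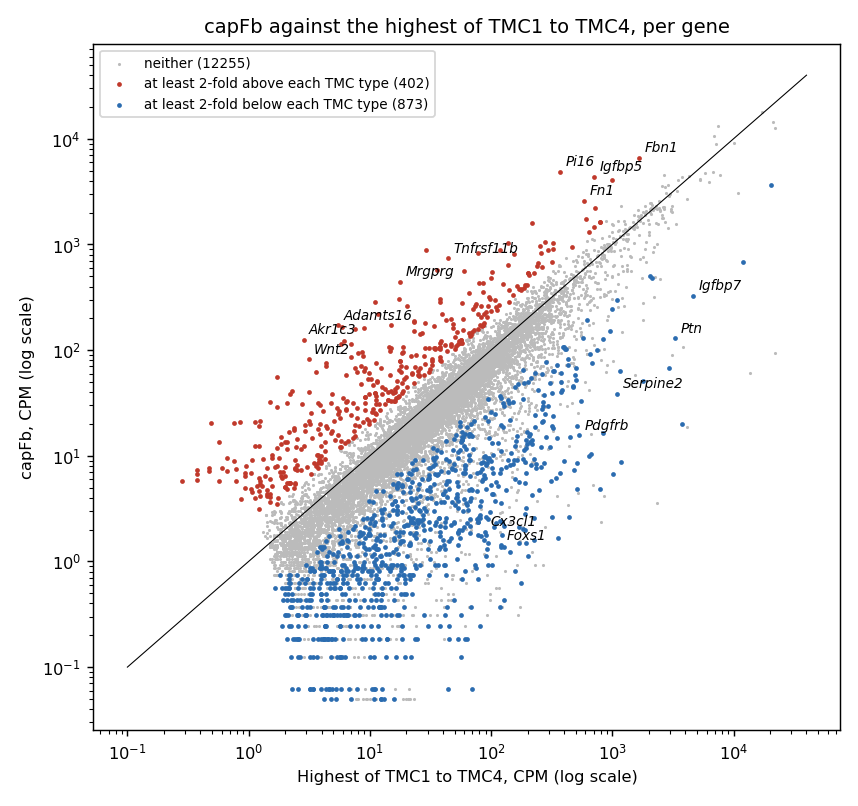
CPM of each of the 13530 tested genes in capFb (vertical, log axis) against the highest of TMC1 to TMC4 (horizontal, log axis), with the line of equality. The 402 genes at least 2-fold above each type are red, the 873 at least 2-fold below each are blue, and genes at 0 in capFb are drawn at the bottom.

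The 15 named genes with the largest ratios (among those with a symbol and a UMI in at least 10% of capFb cells) spanned ratios of 44.2 to 19.0. Akr1c3, an aldo-keto reductase of steroid and prostaglandin metabolism, led them at 125.5 CPM in capFb, 1.21 in TMC1, 0.337 in TMC2, 2.84 in TMC3 and 0.606 in TMC4. Its ratio of 44.2 had an interval of 30.8 to 63.4, and rested on UMIs in 1.13% of TMC3 cells. The ratio was 73.75 with the mean of the cells' CPM and 107 without cells holding 2 or more UMIs of other classes. Under that last filter Mrgprg led, with 282.5 in place of 24.9, and with Tek not counted in it Aard led at 50.3. Next came Aard (41.5), Hs3st5 (32.7), a heparan sulfate sulfotransferase, and Adamts16. Gap43, the growth-associated protein known from axons, stood at 165 CPM in capFb and at most 5.91 in the TMC types. Ace, the angiotensin-converting enzyme, stood at 159 CPM against at most 7.57. The others were Bmp3, Wnt2, Efhd1, Mrgprg, Fam167a, Sv2c, Sema3d, Car8 and Dact2. Outside the mesenchyme, cells labelled TEC:mTEC2 exceeded capFb for Hs3st5 (62.8 against 55.7 CPM) and Fam167a (24.0 against 20.7). The rest of the 15 were highest in capFb among types of at least 20 cells. Wnt2 and Aard came close in TEC:aaTEC2 cells, at 75.1 against 81.9 CPM and 18.3 against 20.2. Here and below, levels elsewhere are those of the TMC types.

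Mrgprg, an orphan receptor of the Mas-related family, was unevenly spread over cells. Its level was 446 CPM in capFb, 0.570 in TMC1, 0.675 in TMC2, 17.9 in TMC3 and 0.865 in TMC4. UMIs of Mrgprg were seen in 615 of 1358 capFb cells, with a median of 6 in those cells and a maximum of 150. The tenth of capFb cells with the most Mrgprg held 64.4% of its UMIs. That share was 54.9% for Akr1c3, 42.2% for Adamts16, 42.0% for Gap43 and 27.1% for Efhd1, a mitochondrial calcium-binding protein. The Fano factor (variance over mean) of Mrgprg in thinned capFb cells was 4.99, and the median over 3421 genes was 1.06.

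Genes whose level over the 24 stromal types was most like that of Pi16 were Prdm8 (Pearson's r of log2 CPM 0.955), Smpd3 (0.946), Mfap5 (0.938), Clec2l (0.929) and Angpt4 (0.905). These types share 1 library. Angpt4, a ligand of the receptor encoded by Tek, stood at 104 CPM in capFb, 15.03 in TMC1, 1.42 in TMC2, 3.41 in TMC3 and 0.692 in TMC4. Smpd3, a neutral sphingomyelinase, stood at 892 CPM in capFb, 119 in TMC1, 10.6 in TMC2, 42.3 in TMC3 and 3.29 in TMC4. The genes shared the order of the types, with capFb first and TMC1 second in the mesenchyme.

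Promoter windows of 4 genes of this pattern are printed so that the start regions of Pi16 and Dpp4 can be read beside those of genes with a like profile. They run from 250 bases before the RefSeq start to 50 bases after it, 5′ to 3′ on the gene's strand, in the GRCr8 build. Pi16 lies at chr20:7377703-7378002 (plus strand), Dpp4 at chr3:67452373-67452672 (minus), Mfap5 at chr4:157399669-157399968 (plus) and Angpt4 at chr3:160880480-160880779 (plus). Capitals mark matches, on either strand, to a CRE (TGACGTCA), an AP-1 site (TGANTCA), a KLF site (GGGTGTGG), a GC box (GGGCGG) or a TATA box (TATAAA).
Pi16: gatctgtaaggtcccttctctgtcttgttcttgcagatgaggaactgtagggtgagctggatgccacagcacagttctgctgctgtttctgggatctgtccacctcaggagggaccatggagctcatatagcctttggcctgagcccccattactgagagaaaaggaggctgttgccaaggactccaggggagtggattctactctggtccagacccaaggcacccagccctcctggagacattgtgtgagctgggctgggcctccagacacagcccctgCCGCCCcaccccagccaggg
Dpp4: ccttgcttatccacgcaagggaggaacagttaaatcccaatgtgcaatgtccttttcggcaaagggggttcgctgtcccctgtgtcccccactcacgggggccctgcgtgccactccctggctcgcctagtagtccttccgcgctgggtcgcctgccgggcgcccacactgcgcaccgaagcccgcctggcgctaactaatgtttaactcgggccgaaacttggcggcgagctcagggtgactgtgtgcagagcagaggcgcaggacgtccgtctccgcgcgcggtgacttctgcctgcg
Mfap5: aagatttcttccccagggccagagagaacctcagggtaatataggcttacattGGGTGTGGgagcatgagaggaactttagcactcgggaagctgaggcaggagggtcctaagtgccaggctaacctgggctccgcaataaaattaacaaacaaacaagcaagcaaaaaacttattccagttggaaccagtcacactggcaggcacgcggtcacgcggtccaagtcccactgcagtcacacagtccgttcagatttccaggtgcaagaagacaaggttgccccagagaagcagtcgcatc
Angpt4: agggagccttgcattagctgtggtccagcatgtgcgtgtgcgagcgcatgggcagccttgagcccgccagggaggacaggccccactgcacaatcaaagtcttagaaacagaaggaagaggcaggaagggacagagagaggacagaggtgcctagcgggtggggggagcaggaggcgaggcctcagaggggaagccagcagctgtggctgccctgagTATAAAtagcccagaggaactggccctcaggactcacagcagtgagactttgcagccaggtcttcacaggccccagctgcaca
Pi16 held a GC box 31 bases into the transcript, Mfap5 a KLF site beginning 197 bases before the start, and Angpt4 a TATA box 33 bases before it. The Dpp4 window held none of the 5 motifs. Windows were found for 313 of the 402 higher genes, 642 of the 873 lower genes and 10561 of all tested genes. The AP-1 letters were in 7.99% of windows of higher genes, 4.52% of those of lower genes and 4.69% of all tested genes. The CRE letters were in 2.24%, 1.56% and 3.15%, and the TATA letters in 12.1%, 9.50% and 7.15%. The KLF letters were in 4.47%, 2.96% and 3.51%, and the GC box in 53.0%, 52.7% and 60.8%. Median GC content was 60.0%, 60.5% and 60.7%. These are counts of letters, not of bound sites.

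Of 24 tested genes of a list written for the Pi16-positive fibroblasts of other organs, 17 were at least 2-fold higher in capFb (2.97% of all tested genes were) and 1 (Opcml) was lower (6.45% of all). The list's median log2 ratio to the mean of the TMC types was 3.41. The list holds the 3 marker genes and was written with earlier results of these data known, so it is no independent evidence of direction. Anxa3, an annexin that binds membrane phospholipid, stood at 305 CPM in capFb and at most 17.5 in the TMC types. Cd55, which protects cells from complement, stood at 259 CPM in capFb, 20.5 in TMC1, 3.94 in TMC2, 10.4 in TMC3 and 0.779 in TMC4. Procr, the protein C receptor, stood at 221 CPM against at most 39.3. Cd34, a sialomucin of fibroblasts and progenitors, was 1.54 times the TMC1 level and did not reach 2-fold, and Dpt was highest in TMC2. In a list for interstitial fibroblasts, 9 of 12 genes were neither higher nor lower, 3 (Col4a1, Col4a2 and Fmo2) were lower and the median was -1.45. That none was higher lies near the 2.97% of all tested genes. Col15a1, a collagen of basement membrane zones, stood at 62.0 CPM in capFb, 558 in TMC1, 880 in TMC2, 468 in TMC3 and 73.0 in TMC4. Both capFb and TMC4 were low for Col15a1 and for Inmt, a methyltransferase.

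**Figure D3:**
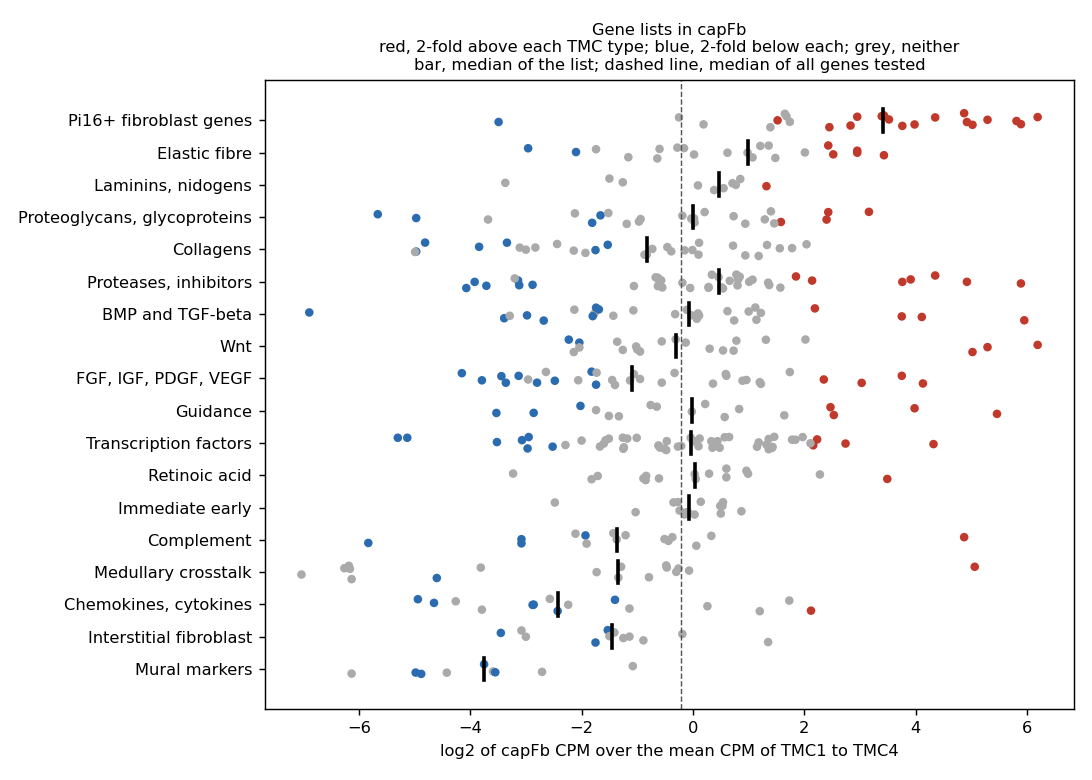
Log2 of capFb CPM over the mean CPM of TMC1 to TMC4 for the tested genes of 18 lists, 1 point per gene, with the median of each list as a bar and the median of all tested genes (-0.21) as a dashed line. The Pi16-positive fibroblast list lies farthest right (median 3.41) and the mural markers farthest left (-3.75).

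Of 21 genes of elastic fibres, 5 (Fbn1, Fbln2, Mfap5, Emilin2 and Ltbp1) were at least 2-fold higher in capFb, 2 (Fbn2 and Emilin1) were lower, and the median was 0.98, beside 2.97% higher, 6.45% lower and a median of -0.21 over all tested genes. Fbn1, which encodes the fibrillin that forms microfibrils, stood at 6650 CPM in capFb, 1660 in TMC1, 494 in TMC2, 774 in TMC3 and 523 in TMC4, a ratio of 4.01 (3.95 to 4.06). Its relative Fbn2 ran the other way, with 21.7 CPM in capFb and 53.7 to 142.5 in the TMC types. Mfap5, a glycoprotein of microfibrils, stood at 4055 CPM in capFb, 1004 in TMC1, 233 in TMC2, 253 in TMC3 and 18.9 in TMC4. Emilin2 stood at 247 CPM in capFb and at most 70.7 elsewhere, while Emilin1 stood at 16.6 CPM in capFb and at 50.0 to 198 elsewhere. Elastin itself (Eln) was 1.29 times its TMC1 level. The pairs Fbn1 with Fbn2 and Emilin2 with Emilin1 thus had opposite orders of capFb and the TMC types.

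None of 29 collagen genes was 2-fold higher in capFb than in each TMC type, and 6 were lower (Col4a1, Col4a2, Col6a5, Col7a1, Col8a2 and Col13a1). Their median was -0.83. A count of 0 higher lies near the 2.97% of all tested genes that were higher, and 6.45% of all were lower. Among chains of fibril collagens, Col1a1, Col1a2 and Col3a1 had their highest level in capFb with TMC1 next. Col1a1, a chain of type I collagen, stood at 13156 CPM in capFb, 7465 in TMC1, 2745 in TMC2, 1796 in TMC3 and 757 in TMC4, a ratio of 1.76 (1.75 to 1.78) to TMC1. Col3a1, of type III collagen, stood at 17903 CPM in capFb and 17114 in TMC1, 8789 in TMC2, 7106 in TMC3 and 4434 in TMC4. Col4a1, of the type IV collagen of basement membranes, stood at 242 CPM in capFb, 702 in TMC1, 842.5 in TMC2, 999 in TMC3 and 727 in TMC4. Col6a6 stood at 99.6 CPM in capFb and 771 in TMC2. Col1a1 and Col3a1 thus had their highest level in capFb and their lowest in TMC4, while Col4a1 was lowest in capFb.

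Of 24 proteoglycans and matrix glycoproteins, 4 were higher (Vcan, Aspn, Fn1 and Postn) and 4 lower (Bgn, Thbs1, Sparcl1 and Comp), with a median of 0.00 (all tested genes, 2.97% higher and 6.45% lower). Fn1, which encodes fibronectin, stood at 2599 CPM in capFb, 585 in TMC1, 237 in TMC2, 259 in TMC3 and 84.0 in TMC4. Postn, the matrix protein periostin, stood at 1618 CPM against at most 793. Its ratio of 2.04 had an interval from 1.995 to 2.085, so counting error alone reaches below 2-fold. Thbs1, the thrombospondin that activates TGF-beta, stood at 1.61 CPM in capFb, 9.76 in TMC1, 4.61 in TMC2, 86.1 in TMC3 and 226 in TMC4. Nid1, which links laminin to collagen IV, was the 1 gene of 10 laminins and nidogens that passed 2-fold (1309.5 CPM, next 647 in TMC2, ratio interval 1.98 to 2.06, list median 0.47), while Nid2 stood at 53.0 CPM in capFb and 251 in TMC2.

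Of 39 proteases and inhibitors, 7 were higher and 6 lower, with a median of 0.46, beside 2.97% and 6.45% of all tested genes. Besides the 3 marker genes, the higher ones were Adamts5, Timp4, Plat and Pcsk6. Pcsk6, a convertase that cleaves precursors of growth factors, stood at 562 CPM in capFb, 60.1 in TMC1, 17.6 in TMC2, 30.1 in TMC3 and 2.16 in TMC4. Plat, the tissue plasminogen activator, stood at 306 CPM against at most 97.8. Serpine2, a serpin that inhibits thrombin and plasminogen activators, stood at 38.7 CPM in capFb, 711 in TMC1, 1098 in TMC2, 637 in TMC3 and 161 in TMC4. Plat and Serpine2 therefore lay on opposite sides of every TMC type.

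Among ligands, 4 of 28 genes of BMP and TGF-beta signalling were higher (Bmp3, Bmp6, Bmp7 and Fstl1) and 7 lower (Bmp5, Inhba, Grem1, Fstl3, Tgfb1, Id1 and Id3), with a median of -0.07. The shares over all tested genes were 2.97% and 6.45%. Bmp7 stood at 107 CPM in capFb, 4.28 in TMC1, 14.3 in TMC2, 5.11 in TMC3 and 1.04 in TMC4. Bmp3, an atypical member that opposes other BMPs, stood at 20.3 CPM in capFb, at most 0.757 in the TMC types and 12.8 in TEC:aaTEC2 cells. Bmp4, a ligand that acts on thymic epithelium, was not among them, with 68.2 CPM in capFb, 159 in TMC1, 292 in TMC2, 84.3 in TMC3 and 36.2 in TMC4. Id1 and Id3, direct targets of BMP signalling, were lower than in each TMC type. Id3 stood at 54.7 CPM in capFb and at 119.5 to 212 elsewhere. Grem1, a secreted BMP antagonist, had 4 UMIs in capFb (0.247 CPM) and stood at 81.2 CPM in TMC4.

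Wnt genes numbered 21, of which 3 were higher (Wnt2, Wnt10b and Dact2) and 2 lower (Dkk3 and Dact3), with a median of -0.31, and 2.97% and 6.45% of all tested genes were. Wnt2, a secreted ligand, stood at 81.9 CPM in capFb, 1.14 in TMC1, 0.0375 in TMC2, 3.12 in TMC3 and 0.173 in TMC4, and was seen in 37.8% of capFb cells. Dact2, an intracellular modulator of Wnt and TGF-beta signals, stood at 221 CPM against at most 11.6. Sfrp1, a secreted Wnt antagonist, stood at 191 CPM in capFb, 1202 in TMC1, 1789 in TMC2, 342 in TMC3 and 27.4 in TMC4. Axin2, a common target of Wnt signalling, stood at 50.9 CPM in capFb and 32.1 to 85.7 in the TMC types.

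Of 32 genes of the FGF, IGF, PDGF and VEGF families, 4 were higher (Fgf18, Igfbp5, Pdgfc and Vegfd, the last with a ratio interval of 1.92 to 3.45) and 9 lower, with a median of -1.10, against 2.97% and 6.45% of all tested genes. Igfbp5 and Igfbp7, secreted proteins of the IGF-binding family, lay on opposite sides of all 4 TMC types. Igfbp5 stood at 4366 CPM in capFb, 705 in TMC1, 63.7 in TMC2, 217 in TMC3 and 11.1 in TMC4. Igfbp7 stood at 327.5 CPM in capFb, 3327 in TMC1, 4628 in TMC2, 3745 in TMC3 and 2537 in TMC4. The lower ligands included those known to feed epithelial growth. Fgf7, the keratinocyte growth factor, stood at 29.4 CPM in capFb, 86.9 in TMC1, 127 in TMC2, 109 in TMC3 and 69.5 in TMC4. Hgf, the hepatocyte growth factor, stood at 5.14 CPM in capFb and at 29.7 to 53.7 elsewhere. Ptn, the heparin-binding factor pleiotrophin, stood at 130 CPM in capFb, 928 in TMC1, 3309 in TMC2, 2055 in TMC3 and 925 in TMC4. Fgf10 was lower in capFb than in TMC1 to TMC3 and higher than in TMC4 (48.8 and 4.50 CPM).

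PDGF receptors split as well. Pdgfrb, the receptor shared with mural cells, stood at 15.7 CPM in capFb, 82.3 in TMC1, 136 in TMC2, 356 in TMC3 and 534 in TMC4. Pdgfra, the receptor of fibroblasts at large, stood at 310 CPM in capFb and at 290 to 589 elsewhere. Of 9 mural marker genes tested, 4 (Notch3, Kcnj8, Cspg4 and Des) were lower in capFb (6.45% of all tested genes were) and none was higher. Their summed level was 231 CPM in capFb, 516 in TMC1 and in TMC2, 1290 in TMC3 and 1957 in TMC4, against 6430 in vascular smooth muscle cells and pericytes.

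Of 15 chemokine and cytokine genes, 6 were lower (Ccl11, Cxcl9, Cxcl10, Cxcl16, Cx3cl1 and Tslp), 1 was higher and 8 were neither, with a median of -2.43. Of all tested genes, 6.45% were lower and 2.97% higher. Cx3cl1, the membrane-bound chemokine fractalkine, stood at 1.92 CPM in capFb, 17.7 in TMC1, 65.2 in TMC2, 89.8 in TMC3 and 62.7 in TMC4. Cxcl9, an interferon-induced chemokine, stood at 41.8 CPM in capFb and at 160 to 382 elsewhere. The higher gene was Ackr3, a receptor that takes up CXCL12. Ackr3 stood at 412 CPM in capFb, 198.5 in TMC1, 129 in TMC2, 47.6 in TMC3 and 4.93 in TMC4, a ratio of 2.08 whose interval (1.99 to 2.17) includes 2. Cxcl12 itself had its lowest level of the 5 types in capFb (425.5 CPM, and 768 to 1124 in the TMC types). The scavenger and its ligand thus had opposite extremes in capFb.

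Of 17 genes of medullary exchange, 1 was higher (Tnfrsf11b) and 1 lower (Il7), with a median of -1.34. These counts lie near the shares over all tested genes, 2.97% and 6.45%. Tnfrsf11b, which encodes osteoprotegerin, the soluble decoy of RANK ligand, stood at 742 CPM in capFb, 43.8 in TMC1, 12.7 in TMC2, 28.1 in TMC3 and 4.41 in TMC4, a ratio of 16.9 (15.6 to 18.4). Tnfsf11, which encodes RANK ligand, had 1 UMI in capFb (0.0619 CPM) and stood at 16.1 CPM in TMC4. Il7, the survival factor of thymocytes, stood at 3.22 CPM in capFb, 8.12 in TMC1, 21.7 in TMC2, 90.3 in TMC3 and 193 in TMC4. The capFb and TMC4 levels of Tnfrsf11b and Il7 ran in opposite order. Il33, an alarmin cytokine, was present in both at 1430 and 2872 CPM, with 612 in TMC2. Ccl19 and Ccl21, ligands of CCR7, stood at 60.7 and 94.2 CPM in capFb and at 13615 and 22085 in TMC4.

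Of 15 complement genes, 4 were lower (C3, C4a, Clu and Masp1) and 1, the inhibitor Cd55, was higher, with a median of -1.37, beside 6.45% lower and 2.97% higher over all tested genes. C7, of the membrane attack complex, stood at 3047 CPM in capFb, 9284 in TMC1, 10851 in TMC2, 6731 in TMC3 and 4725 in TMC4. C4a stood at 500 CPM in capFb and at 1759 to 2030 elsewhere. Of 16 retinoic acid genes, 1 (Dhrs9, a retinol dehydrogenase) was higher, at 62.5 CPM against 17.9 in TMC1, and none was lower, with a median of 0.04, counts near those shares. Aldh1a2, a retinaldehyde dehydrogenase, reached 134 CPM in capFb, 1.54 times TMC3.

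Of 17 guidance genes, 4 were higher (Sema3b, Sema3c, Sema3d and Efnb2) and 3 lower (Slit2, Robo1 and Nrp2), with a median of -0.02 (2.97% and 6.45% over all tested genes). Sema3c, a secreted semaphorin, stood at 1601 CPM in capFb, 218 in TMC1, 75.3 in TMC2, 90.7 in TMC3 and 20.5 in TMC4. Sema3d stood at 123 CPM against at most 6.13. The semaphorin coreceptors were low, with Nrp2 at 9.22 CPM in capFb and 43.4 to 155 elsewhere, and Nrp1 at 136 CPM and 246 to 550.

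Among 53 transcription factors, 4 were higher (Prrx2, Osr2, Klf4 and Creb5) and 7 lower (Meox2, Foxf1, Foxs1, Tbx2, Nr2f2, Nr4a1 and Hoxd3), with a median of -0.04, while 2.97% of all tested genes were higher and 6.45% lower. Creb5, a bZIP factor that binds the CRE, stood at 828 CPM in capFb, 78.1 in TMC1, 17.7 in TMC2, 53.6 in TMC3 and 16.9 in TMC4, a ratio of 10.6 (9.96 to 11.3). Klf4, a zinc finger factor, stood at 619 CPM against at most 238, and Osr2 at 26.4 against at most 5.58. The ratio of Prrx2 was 2.02 (1.89 to 2.17). Nr2f2, an orphan nuclear receptor, stood at 32.7 CPM in capFb, 150 in TMC1, 274 in TMC2, 527 in TMC3 and 552.5 in TMC4. Meox2, a homeobox factor, stood at 24.3 CPM in capFb and at 190 to 228.5 elsewhere. Hoxa5, Hoxc4 and Tbx5 had capFb levels close to those of TMC1 and were lower in TMC2 to TMC4. For Hoxc4, a homeobox factor, the levels were 21.6 CPM in capFb, 20.5 in TMC1 and at most 4.95 in TMC2 to TMC4. None of 15 immediate-early and heat-shock genes, which respond to tissue handling, passed 2-fold either way (median -0.07), and their summed level of 4820 CPM lay between 2946 in TMC2 and 6002 in TMC3.

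The 15 named lower genes had capFb levels under 10 CPM except Chi3l1 (15.04). The lowest of the 4 TMC levels was 9.21 to 15.1 times the capFb level. Cox6b2, a subunit of cytochrome c oxidase, stood at 0.928 CPM in capFb, 14.8 in TMC1, 14.1 in TMC2, 26.7 in TMC3 and 36.3 in TMC4. Etv4, an ETS factor downstream of FGF signals, stood at 1.30 CPM in capFb and 18.6 to 29.9 elsewhere. Ednra, the endothelin A receptor, stood at 4.76 CPM in capFb and 52.2 to 133 elsewhere. Runx2, a transcription factor of skeletal cells, stood at 1.92 CPM and 20.3 to 37.9. Heyl, a target of Notch signalling, stood at 3.71 CPM and 34.2 to 83.3, and Neurl1b, a ubiquitin ligase that acts on Notch ligands, at 2.29 CPM and 26.7 to 63.5. Tnfsf13b, the B cell factor BAFF, stood at 8.23 CPM in capFb and 77.8 to 90.2 elsewhere. Tnfsf13b was nearly level over the 4 TMC types, while Slc16a7, a monocarboxylate transporter, ranged from 14.75 in TMC1 to 170.0 CPM in TMC4 against 1.49 in capFb. The others were Fxyd6, Adcyap1r1, Ctsc, Mettl24, Kcne4 and Cx3cl1.

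In capFb cells thinned to 2000 UMIs, the 10 most variable genes by Fano factor were Col1a1 (13.6), H19 (10.9), Mgp (10.4), Apoe (9.89), Col3a1 (8.47), Gsn (7.31), mt-Rnr2 (7.12), C7 (6.67), Pi16 (6.33) and Col1a2 (5.85). The factor of Dpp4 was 1.41. In TMC1 the factor was higher for Col1a1 (15.98), Mgp (38.5), Apoe (18.8) and Gsn (18.3) and lower for H19 (5.10) and Pi16 (3.74). The factor tends to rise with a gene's mean level. Pi16 stood at 4894 CPM in capFb and 371 in TMC1, and Dpp4 at 820 in capFb. These factors therefore do not show which gene or type is more uneven for its level. H19, an imprinted non-coding RNA, was seen in 12.3% of thinned cells. Split into 4 groups of 340 or 339 cells by their Pi16 CPM, the cells had median Pi16 levels of 1291, 3023, 5156 and 9033 CPM. The groups are cuts of a continuous range, and 89, 122 and 128 cells lay within 10% of the 3 cuts. Median depth was 10544 UMIs in the lowest group and 11964 in the highest.

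The other marker genes went with Pi16 within the type. From the lowest to the highest group, Dpp4 stood at 527, 780, 917 and 1050 CPM, and its median over cells went from 455 to 983 CPM. Adamts16 stood at 98.0, 130, 193 and 266 CPM. Anxa3 stood at 145.5 CPM in the lowest group and 453 in the highest, and Il33 at 1080 and 1753. For Fn1, Creb5 and Smpd3 the highest group stood at 0.957, 1.10 and 0.999 times the lowest. C7 and Igfbp7, higher in each TMC type than in capFb, went the other way. Not all genes higher in a TMC type did. Dcn, at 17011 CPM in TMC1, stood at 14164 CPM in the lowest group and 14016 in the highest. Il33 rose although it was higher in TMC4 than in capFb. Col1a1, highest in capFb, stood at 14117 CPM in the lowest group and 11015 in the highest. C7 stood at 4451, 3424, 2536 and 1944 CPM, with medians over cells of 3410 and 1367 in the lowest and highest groups. Igfbp7 stood at 567, 371, 244 and 152 CPM. S100a9, a neutrophil gene outside the list of 10 myeloid genes, stood at 181, 39.1, 30.2 and 33.1 CPM. Its Fano factor in thinned capFb cells was 5.21, against 1.06 in TMC1, and the source of these UMIs was not tested. Of 9885 genes with enough UMIs, 52 (0.526%) were at least 2-fold higher in the highest group and 306 (3.1%) at least 2-fold lower. Of the 365 genes higher than in each TMC type that could be compared, 77.0% were above 1 in the ratio of highest to lowest group, and 38.2% of all 9885 genes were. Of the 873 genes lower than in each TMC type, 215 could be compared, and 96.3% of these were below 1. Most of all 9885 genes were also at or below 1, since 38.2% were above it. The groups were cut on a gene of the same profile, and the shares are a description.

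**Figure D4:**
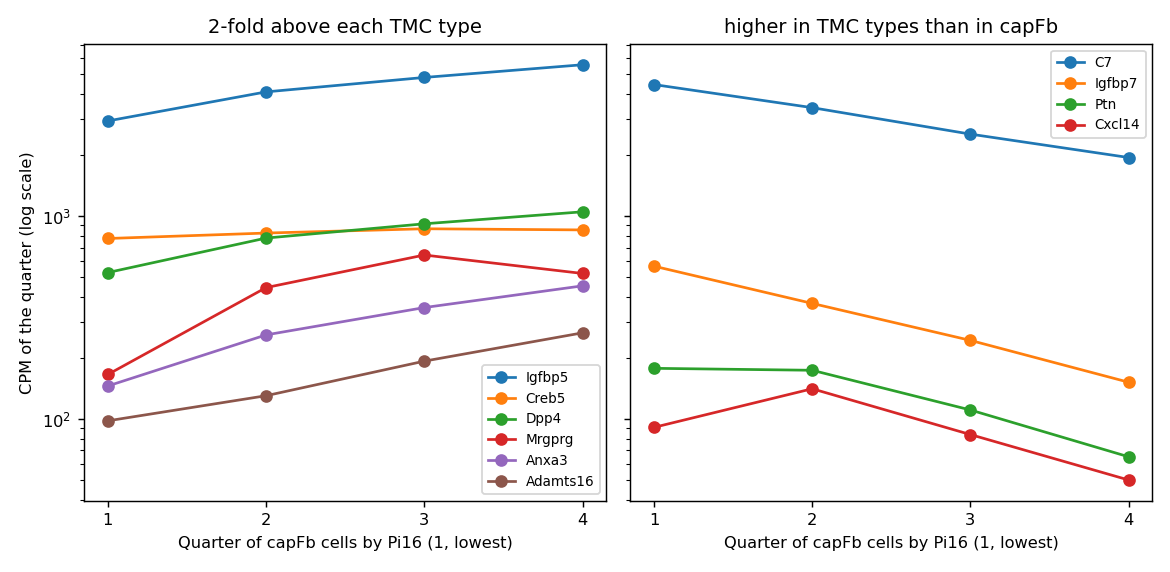
CPM (log axis) in 4 groups of capFb cells by Pi16 level (1, lowest), 340 or 339 cells each, for 6 genes at least 2-fold above each TMC type (left) and 4 genes that are higher in the TMC types (right). Dpp4 goes from 527 to 1050 CPM and Igfbp7 from 567 to 152, while Creb5 stays between 776 and 866.

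In the section, position was a readout that the choice of cells did not use, although the labels were inferred by the authors with RCTD from a reference that holds these cells. Bins of 20 units (10 µm wide) carried up to 3 labels. Each bin has an area given by the authors, called capsular, cortex, mECA or mEFA, the last pair being medullary. The capsular area held the bins within 50 µm of a drawn capsule, at the nominal 0.5 µm per unit, and how the capsule was drawn is not given in the sources used here. The drawn capsule followed the rim of the tissue and bands between lobules. Neighbouring bins are not independent, and intervals cover counting error only.

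As a first label capFb was rare, at 51 of 592087 labelled bins, and 50 of the 51 lay in the capsular area with 1 in the cortex. The share of bins was 0.0405% in the capsular area and 0.000244% in the cortex, a ratio of 166 (22.9 to 1201) that rests on 1 cortical bin. The same ratio was 58.0 (21.2 to 159) for TMC1, 46.4 (14.4 to 150) for TMC2, 8.56 (6.38 to 11.5) for TMC3 and 2.86 (1.86 to 4.42) for TMC4. The interval of capFb overlaps those of TMC1 and TMC2 and lies above those of TMC3 and TMC4. Most capFb labels were in second place (1126 bins), with 123 in the last place. Where capFb was second, the first label was DN (double-negative thymocytes) in 525 bins and DP (double-positive) in 277. In any place, DN was in 45.9% of bins with capFb and 51.8% of all labelled capsular bins. For DP these shares were 26.1% and 27.8%. The median weight of capFb over the 1300 bins with the label in any place was 0.176 of the bin. Of the 1300 bins, 11 lay in mECA and 18 in mEFA, and the share in mEFA (0.0930%) was above that in the cortex (0.0513%). Over these 1300 bins the capsular to cortical ratio was 16.8 (14.5 to 19.4), and 15.8 (13.96 to 17.9) for TMC1.

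The authors' merged mesenchymal label, gave 381 capFb bins, all with a confident capFb label in first (48) or second place (333). Of these, 343 lay in the capsular area, 38 in the cortex and 0 among 59534 medullary bins, a count that allows a share of up to 0.00504%. In the same column 327 of 382 TMC1 bins, 235 of 315 TMC2 bins, 39 of 81 TMC3 bins and 141 of 1704 TMC4 bins were capsular. The share of merged bins inside the drawn capsule itself was 74.5% for capFb, 66.0% for TMC1, 56.8% for TMC2, 43.2% for TMC3 and 2.99% for TMC4, and 2.67% of all labelled bins lay there. Among 31 labels given to at least 100 bins in any place, capFb had the highest share of bins inside the drawn capsule (62.4%), followed by TMC1 (59.9%). The merged capFb bins held a median of 313 UMIs, against 326 in all labelled bins and 381 in TMC1 bins.

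**Figure D5:**
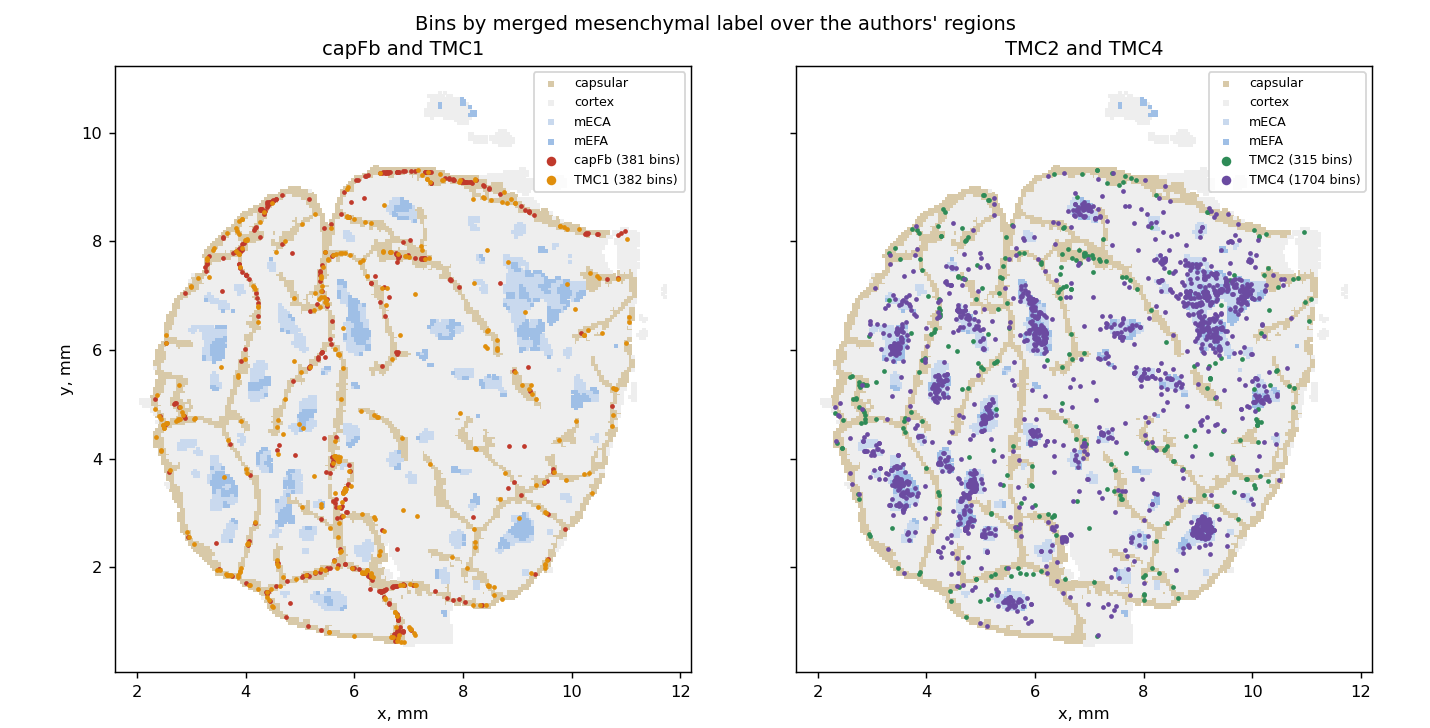
Positions in mm of 20-unit bins by merged mesenchymal label over the authors' regions (50 µm squares): capFb (381 bins) and TMC1 (382) at left, TMC2 (315) and TMC4 (1704) at right. The capFb bins lie along the rim and along bands between lobules, with 343 of 381 in the capsular area, while TMC4 bins lie mainly in the medullary areas.

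The outline of the tissue gave a second measure. Bins with capFb as first label lay a median of 114 µm from the outline (quartiles 61.6 and 368 µm). The median was 440.5 µm for TMC1, 226 for TMC2, 1220 for TMC3, 1288 for TMC4 and 1133 for all labelled bins. By the merged label it was 425 µm for capFb (quartiles 63.3 and 1276), 652 for TMC1, 1062 for TMC2, 1438 for TMC3 and 1316 for TMC4. The capFb bins had the lowest median under both of these labels, with wide and overlapping quartiles. With the label in any place the order turned, at 793 µm for capFb (quartiles 80.6 and 1547) and 783 µm for TMC1 (138 and 1607.5). The drawn capsule reaches inward, and labelled bins of the capsular area lay a median of 820 µm from the outline.

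Within the capsular area, capFb bins were denser at the outer rim than in the inner bands. By the merged label it took 0.525% of the 24012 bins within 100 µm of the outline and 0.218% of the 99361 bins of inner bands, a ratio of 2.40 (1.93 to 2.99). The ratio was 1.65 (1.29 to 2.09) for TMC1, 0.749 (0.525 to 1.07) for TMC2, 0.345 (0.106 to 1.12) for TMC3 and 0.849 (0.547 to 1.32) for TMC4. Vascular smooth muscle cells and pericytes, at 1.71 (1.08 to 2.70), were also denser at the rim. By first label the ratio was 3.82 (2.19 to 6.65) for capFb, 2.45 (1.51 to 3.97) for TMC1 and 2.55 (1.37 to 4.75) for TMC2, with overlapping intervals and with TMC2 on the other side of 1. With the label in any place it was 2.05 (1.81 to 2.33) for capFb and 1.52 (1.35 to 1.71) for TMC1. The intervals of capFb and TMC1 overlap under the merged and first labels and are apart with the label in any place. The 100 µm limit was set after the map of bins was seen. Over all labelled bins of the section, cortex and medulla included, the merged share of capFb from the outline inward was 0.213% up to 20 µm, 0.590% from 20 to 40 µm, 0.527% from 40 to 60 µm, 0.106% from 100 to 150 µm and 0.0427% beyond 500 µm. For TMC1 the shares in these bands were 0.166%, 0.496%, 0.405%, 0.118% and 0.0480%, a profile of like shape. From 60 to 80 µm the merged shares were 0.326% for capFb and 0.178% for TMC1. From 80 to 100 µm they were 0.226% and 0.141%, with overlapping intervals in both bands. With the label in any place TMC1 exceeded capFb from 20 to 40 µm (1.94% and 1.66%) and from 40 to 60 µm (1.73% and 1.57%). From 60 to 80 µm TMC1 lay below capFb (0.681% and 0.888%).

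Within the capsular area, bins of the same mesenchymal label lay near one another, those of capFb among them. The nearest other merged capFb bin was a median of 28.3 µm away, and 52.2% had one within 30 µm. From all labelled capsular bins the nearest capFb bin lay a median of 181 µm away, and 5.601% had one within 30 µm. A TMC1 bin lay within 30 µm of 20.7% of capFb bins, against 6.19% of all capsular bins. For TMC3 these shares were 2.33% and 0.876%, for TMC2 11.4% and 4.89%, and for TMC4 6.41% and 2.89%. For vascular smooth muscle cells and pericytes they were 5.25% and 1.71%. Each of these labels was thus more frequent near capFb bins than near capsular bins at large, and the source of this was not tested.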

How the data were processed

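Droplet libraries of rat thymic stroma and thymocytes and a Stereo-seq section were used as deposited. In the deposited matrices each entry is a raw count of UMIs for 1 gene in 1 barcode, from Cell Ranger 8.0.0 (per the file headers). Seurat 5.3.0 and the build mRatBN7.2 are named per the submitters' processing notes, and the gene annotation is not given in the sources used here. The percent of mitochondrial UMIs is the authors' deposited value per cell. RCTD weights are deposited fractions of a bin, and labels, regions and capsule distances are the authors'.

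Cells took the projected label or, where empty, the cluster. UMIs were summed per type and divided by the type's total. CPM have exact Poisson intervals, shares exact Clopper-Pearson intervals and ratios log-normal intervals. A ratio against 0 UMIs was computed against 3 UMIs per type. Genes with at least 100 UMIs over the 5 types were called at 2-fold by size alone, with no statistical test. The text names the 3 markers, the 15 largest and 15 smallest ratios (with a UMI in at least 10% of cells), up to 4 members at each end of a gene list, the 10 genes of highest Fano factor (mean of at least 0.1) and the 5 most like Pi16. Names outside this rule (Wnt10b, Bmp4, Axin2, Fgf10, Hoxc4 and the like) were added for their role after their values were seen. The members and lists were chosen with earlier results of these data known. No doublet caller was run and no doublets were removed. Distance to the outline was measured on the grid of bins with holes filled. Promoter windows came from RefSeq (GRCr8).

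The ratio was tested on simulated sums, and the distance on a simulated disc, before use. Alternatives were cell and bin filters, scalings, thinning and label rules. The seed was 7. Versions were matplotlib 3.10.9, pandas 2.3.3, SciPy 1.17.1, NumPy 2.4.6 and Python 3.11.15.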

Additional observations from a re-analysis of the deposited data

Results flagged for a closer look

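The 3 markers also gave signal in barcodes outside the comparisons, above the limit that a count of 0 allows. In the 2934 stromal barcodes left without annotation, Pi16 stood at 232 CPM (in 308 barcodes), Dpp4 at 54.6 CPM (127) and Adamts16 at 14.7 CPM (38). In the thymocyte library Pi16 stood at 19.3 CPM and Adamts16 at 0.776 CPM, while Dpp4, which T cells also express, stood at 122 CPM, in 3939 of 8574 barcodes. The source of these UMIs was not tested.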

How the results depend on the processing

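No paired analysis was possible because neither library nor the section had a replicate. The counts of genes 2-fold higher and lower (402 and 873) stayed within 1.5 times under each of 8 alternatives to the way cells and genes were summed or filtered: 579 and 1228 with a minimum of 20 UMIs, 407 and 948 with the mean of the cells' CPM, 270 and 602 in cells thinned to 2000 UMIs (10664 genes tested), 309 and 812 without cells holding 2 or more UMIs of other classes. That last filter removed 73.3% of capFb cells, because it counts Tek. With Tek not counted it removed 18.4% and gave 387 and 863. At 3-fold the counts were 234 and 467. The share of capFb cells was 10.3% in the settings where it was recomputed. It does not describe the cells kept by the filter that counts Tek. That filter removed 73.3% of capFb cells and 24.0% to 28.2% of each TMC type. The ratio of capsular area to cortex (166) was 16.8 with any label and at least 18.8 (against 3 bins, since none was cortical) in bins at or above the median UMI count. It stayed within its interval in the other settings, at 23.4 with sums of weights, 29.9 with the merged label and at least 58.7 in cell bins, again with no cortical bin. The median distance from the outline (114 µm) was 793 µm with any label (783 µm for TMC1), 425 µm with the merged label, 575 µm with sums of weights and 368 µm both in cell bins and in bins at or above the median UMI count (18 bins). It was 118, 128 and 80.6 µm with confident labels and on the left and right of the section. Bins given 1 type gave no value, since none was capFb. The merged label, the filter without Tek and the centred scaling were chosen after seeing the data. Of 224 recomputed ratios of named genes, 168 stayed within their interval, 56 moved outside it and none changed direction. The labelled bins held a median of 326 UMIs.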
